A study of Mus musculus with 21 samples.

Results

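The genes described here are 9 transcription factors of naive pluripotency: Klf2, Klf4, Klf5, Tfcp2l1, Esrrb, Nr0b1, Zfp42, Tbx3 and Nr5a2. They were taken by gene symbol from a table of 33861 mouse genes, and each of the 9 symbols matched 1 gene. Naive pluripotency is the state of the epiblast before implantation and of embryonic stem cells kept with the cytokine LIF or with inhibitors of MEK and GSK3. In that state KLF factors, Tfcp2l1, Esrrb, Nr5a2, Tbx3 and their targets hold each other's transcription up together with Pou5f1, Sox2 and Nanog. After implantation the epiblast passes through a formative state, which FGF and NODAL signals accompany, and these factors are turned down before the primed state that epiblast stem cells represent.

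RNA was sequenced from 12 samples of cultured cells, with 1000 cells collected for each, and from 9 single mouse epiblasts. FS cells, labelled as formative stem cells, grew in a medium called A3XR and came from 2 lines: FS line 1 at passages 10, 11 and 18, and FS line 2 at passages 12, 13 and 16. Both AF cells and AFX cells are labelled EpiSCs (epiblast stem cells), carry E14 in their names, and grew in media that bear the same names as the groups, each sampled at passages 14, 15 and 16. The epiblasts came from embryonic days 5.0 (embryos 1, 2 and 4), 5.5 and 6.0 (embryos 1 to 3 each), with the last stage given as 6.5 in another label field and called E6.0 here. The labels give no genotype or strain for any group, and they do not spell out the components of the media. AF and AFX were each sampled from 1 line, and between FS and either of them the line and the medium differ together. Replicates in culture were taken at different passages of the same cells, so p-values measure the spread between these samples, while the epiblasts are separate embryos.

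Total counts per sample ran from 5827093 to 15916800, so that 3 counts of a gene were worth 0.171 to 0.589 counts per 1000000 (CPM) after scaling. The general pluripotency genes Pou5f1, Sox2, Lin28a, Epcam and Cdh1 were present in all 6 groups, with Pou5f1 means of 388 to 661 CPM, while Dppa4 was at 0.419 CPM in AF against 90.6 CPM at E5.0. Libraries of some groups also held markers of other cell types. The sum of 12 visceral endoderm markers was 683, 841 and 269 CPM in E5.0 embryos 1, 2 and 4, 34.2 to 72.6 CPM at E5.5 and 9.58 to 11.3 CPM at E6.0. It was 51.2 to 79.8 CPM in AF, 2.42 to 16.5 CPM in AFX and 0.106 to 2.88 CPM in FS, with Afp and Apoa4 at 0 in the 12 cultured samples. Of the 12 markers 9 had a count in each AF sample, 7 in each AFX sample and 1 to 7 in the FS samples. The sum of 10 feeder fibroblast markers was 296 to 429 CPM in AF, 64.2 to 93.9 CPM in AFX, 30.8 to 88.6 CPM in FS and 12.4 to 32.0 CPM in the epiblasts. Of the 10 extraembryonic ectoderm and trophoblast markers the sum was 236 to 403 CPM in AF, 101 to 152 CPM in AFX, 50.5 to 103 CPM in FS, 77.4 to 152 CPM at E5.0, 48.5 to 82.6 CPM at E5.5 and 99.1 to 227 CPM at E6.0. The library of E5.0 embryo 2 stood apart in the trophoblast genes Elf5, Cdx2 and Hand1, 3 genes picked from the list after their values were seen, at a sum of 16.5 CPM against 0.621 CPM in embryo 1 and 0 in embryo 4. In these bulk samples fewer cells of a type and less RNA per cell cannot be told apart.

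In GRCm38 (GENCODE annotation) the 9 protein-coding genes lie on 7 chromosomes: Klf2 at chr8:72319033-72321656, Klf4 at chr4:55527143-55532466, Klf5 at chr14:99298691-99315036, Tfcp2l1 at chr1:118627945-118685168, Esrrb at chr12:86361117-86521628, Nr0b1 at chrX:86191764-86195947, Zfp42 at chr8:43295063-43306980, Tbx3 at chr5:119670669-119684724 and Nr5a2 at chr1:136842571-136960448. Promoter sequences were available for 7 of the 9 genes, as 9 windows of 300 bases that run from 250 bases before to 50 bases after an annotated start (RefSeq, GRCm38.p6). Klf5 and Tbx3 had no entry. The 250 bases before the start are shown for Zfp42, Klf4 and Tfcp2l1, since these genes were lower together in FS than in AF while in the epiblast Zfp42 and Tfcp2l1 fell and Klf4 was not called. Capitals mark matches, on either strand, to the octamer ATTTGCAT that POU factors bind, the KLF motif CCACACCC, or the GC box GGGCGG, which SP and KLF factors can bind. The windows lie on the minus strand at chr8:43307010-43307259 for Zfp42, on the minus strand at chr4:55532476-55532725 for Klf4 and on the plus strand at chr1:118627695-118627944 for Tfcp2l1.
Zfp42: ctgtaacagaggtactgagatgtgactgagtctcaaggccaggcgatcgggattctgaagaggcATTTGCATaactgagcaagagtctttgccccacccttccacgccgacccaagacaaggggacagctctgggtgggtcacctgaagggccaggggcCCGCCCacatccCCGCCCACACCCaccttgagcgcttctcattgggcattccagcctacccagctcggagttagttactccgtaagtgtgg
Klf4: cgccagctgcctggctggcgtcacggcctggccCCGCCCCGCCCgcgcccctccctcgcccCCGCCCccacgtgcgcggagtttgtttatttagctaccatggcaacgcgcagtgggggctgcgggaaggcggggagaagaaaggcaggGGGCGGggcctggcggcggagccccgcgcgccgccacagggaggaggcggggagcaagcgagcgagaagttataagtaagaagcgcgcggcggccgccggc
Tfcp2l1: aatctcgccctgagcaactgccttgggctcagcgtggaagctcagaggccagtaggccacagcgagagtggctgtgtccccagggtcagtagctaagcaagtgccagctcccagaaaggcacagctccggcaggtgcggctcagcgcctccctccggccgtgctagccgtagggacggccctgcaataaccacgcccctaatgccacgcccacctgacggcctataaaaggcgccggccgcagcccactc

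In the Zfp42 window the octamer began at position -186 and the KLF motif at -75 from the start, where it overlaps the second of 2 GC boxes at -91 and -79. No other window of the 9 held the octamer or the KLF motif, which occur in 1.74% and 3.56% of the 32851 promoters in the table. The Klf4 window held 4 GC boxes, the first 2 of them overlapping by 1 base, and that of Klf2 held 2, at -214 and -195. A GC box occurs in 35.7% of promoters, and 3 of the 9 windows held one. Matches to TCAAGGTCA (bound by ESRRB and NR5A2), TTCCNGGAA (STAT3) and AGGTGTGA (T-box factors) were found in none of the 9 windows, and occur in 0.423%, 1.15% and 1.28% of promoters. The Klf4 window was 74.3% G and C, that of Tfcp2l1 65.3% and that of Zfp42 57.7%, against a median of 52.7%.

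Transcripts of the naive factors were low in most groups. Of the 63 means (9 genes in 7 groups, with the FS lines apart), 59 were under 10 CPM and 21 under 1 CPM, from 0.0379 CPM for Nr5a2 in FS line 2 to 29.8 CPM for Klf5 in AF. The 9 genes together summed to 50.7 to 86.7 CPM at E5.0, 22.7 to 37.5 CPM at E5.5 and 23.9 to 28.5 CPM at E6.0. In culture the sum was 45 to 69.6 CPM in AF, 10.2 to 20.1 CPM in AFX and 6.86 to 14.2 CPM in FS. The AF range thus overlapped that of E5.0, and each FS sample lay below each of the 9 epiblasts. Levels were compared between genes only as CPM per kilobase of merged exon. On that scale Zfp42 led at E5.0 with a mean of 9.67 CPM per kilobase, followed by Klf5 at 3.30, Klf2 at 2.12, Klf4 at 1.54 and Tfcp2l1 at 1.04, with Esrrb the lowest at 0.247. Single embryos set part of that order, since Klf2 was at 0.873 without embryo 4, Klf5 at 1.87 and Esrrb at 0.0298 without embryo 2, all in CPM per kilobase. In AF the order was Klf5 at 5.73 CPM per kilobase, Klf2 at 2.15, Zfp42 at 1.65, Klf4 at 1.47, Tfcp2l1 at 1.00 and Esrrb at 0.750, and in FS it was Klf5 at 0.863, Klf4 at 0.439, Tfcp2l1 at 0.295 and Klf2 at 0.221. At E6.0 Klf2 was the highest of the 9 at 2.44 CPM per kilobase, ahead of Klf4 at 1.83, Zfp42 at 1.45 and Klf5 at 1.14.

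When the 7 groups were ordered by mean CPM for each gene, the sample ranges of neighbouring groups overlapped in 47 of 54 cases. The gaps without overlap were, for Klf4, between AF (4.48 CPM) and AFX (1.95 CPM), and for Klf5, between E5.0 (17.2 CPM) and E6.0 (5.92 CPM). Tfcp2l1 had one between AF (9.44 CPM) and E5.5 (4.13 CPM), and Klf2 one between FS line 1 (0.646 CPM) and FS line 2 (0.170 CPM). For Zfp42 there was a gap between E5.5 (11.6 CPM) and AF (3.10 CPM) and another between E6.0 (2.73 CPM) and FS line 1 (0.106 CPM). Esrrb had one between FS line 2 (0.835 CPM) and the lowest group, E5.5 (0.251 CPM). Nr0b1, Tbx3 and Nr5a2 had no such gap, so the order of their groups was not resolved between neighbours.

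**Figure D1:**
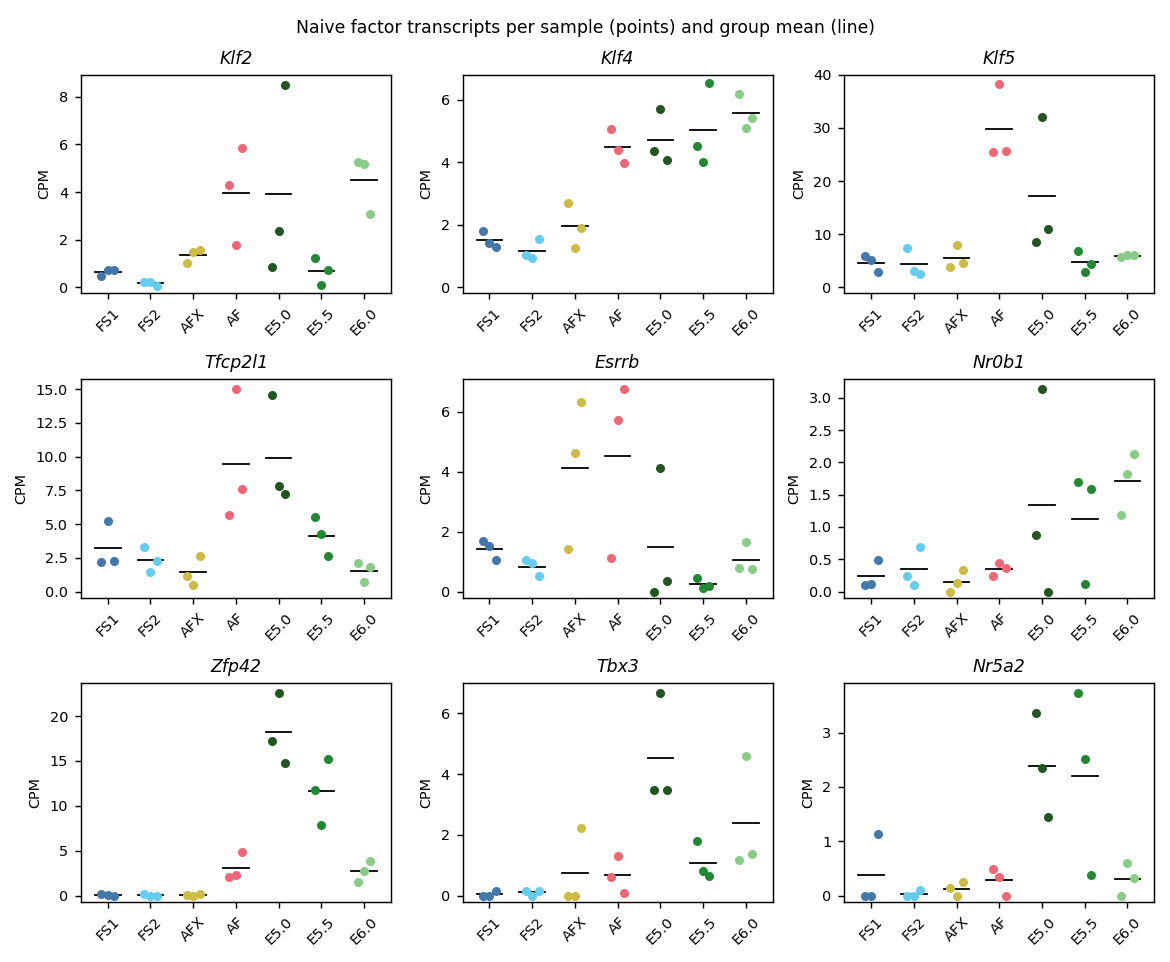
CPM of each of the 9 genes (vertical axes, linear, each with its own scale) in the 21 samples, by group, with points for samples and lines for group means. Klf5 and Tfcp2l1 were highest in AF and E5.0, Zfp42 was highest at E5.0 and E5.5, and Klf4 was at 3.99 to 6.53 CPM in AF and the epiblasts and at 2.68 CPM or less in FS and AFX.

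FS cells held less Klf2, Klf4, Klf5, Tfcp2l1, Esrrb and Zfp42 than AF cells. These 6 passed the filter on low counts in the fit of the 12 cultured samples, and each was lower in FS (edgeR quasi-likelihood test, adjusted p under 0.05 after Benjamini-Hochberg adjustment over 16052 genes). Of all genes tested 10.6% were called lower in FS than in AF and 8.86% higher. In 5 of the 6, Esrrb excepted, each FS sample was below each AF sample, which held for 10.8% of all genes tested. Zfp42 passed the filter through its level in AF, and Klf2 through its levels in AF and AFX, where they are high. The count of calls, and the tests of both genes in the cultured comparisons, are therefore given as a description only. Nr0b1, Tbx3 and Nr5a2 did not pass the filter and were not tested in cultured cells.

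Klf4, a zinc finger factor of the LIF pathway that also serves in reprogramming to pluripotency, stood at 5.06, 4.40 and 3.99 CPM in AF at passages 14, 15 and 16. In FS it ran from 0.949 CPM through a median of 1.36 CPM to 1.79 CPM. The ranges did not overlap, and the log2 fold change of FS against AF was -1.74 (SE 0.31, adjusted p = 0.00115, edgeR). Klf2, another member of the family, whose protein MEK inhibition stabilises, was at 4.32, 1.76 and 5.85 CPM in AF and at 0.0569 to 0.733 CPM in FS, with a median of 0.369 CPM. Its log2 fold change was -3.32 (SE 0.55, adjusted p = 0.000731, edgeR), from 26 counts in the 6 FS samples and 118 in the 3 AF samples. Klf5, a further KLF factor of embryonic stem cells and one that the early embryo also needs in trophectoderm, was at 25.4, 38.3 and 25.7 CPM in AF. In FS it lay between 2.5 and 7.47 CPM with a median of 4.12 CPM. The log2 fold change was -2.75 (SE 0.32, adjusted p = 5.39e-05, edgeR), and each FS sample was below each AF sample.

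Tfcp2l1, a CP2-family factor and a target of LIF and STAT3, was at 5.67, 15 and 7.61 CPM in AF and at 1.48 to 5.20 CPM in FS, with a median of 2.28 CPM. The highest FS sample, line 1 at passage 11, came close to the lowest AF sample without reaching it. The log2 fold change was -1.78 (SE 0.44, adjusted p = 0.00978, edgeR), and without AF passage 15 it was -1.27 (adjusted p = 0.0779). Esrrb, an orphan nuclear receptor downstream of GSK3 inhibition, was at 1.11, 5.72 and 6.77 CPM in AF and at 0.512 to 1.69 CPM in FS, with a median of 1.05 CPM. AF passage 14 lay within the FS range, so the groups overlapped. Its log2 fold change was -2.05 (SE 0.53, adjusted p = 0.0135, edgeR), and without AF passage 16 it was -1.66 (adjusted p = 0.0827).

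Zfp42, also called Rex1, a zinc finger protein whose gene is widely used as a reporter of the naive state, was at 2.1, 2.29 and 4.92 CPM in AF. The 6 FS samples held 5 counts in all, at 0 to 0.199 CPM, against 96 counts in AF. The ratio of FS to AF in CPM was 0.0224, with a 95% counting interval of 0.00711 to 0.0541 that covers counting error only. The fitted log2 fold change was -5.23 (SE 0.72, adjusted p = 0.000167, edgeR), and no FS sample reached the AF range. Marker genes of other cells moved with this comparison. The visceral endoderm, trophoblast and fibroblast sums given above were each higher in each AF sample than in any FS sample, and their part in the differences of the naive factors was not tested. Of the endoderm markers tested 4 of 4 were lower in FS, as were 5 of 7 trophoblast and 8 of 9 fibroblast markers, with none higher. Of all genes tested 10.6% were lower and 8.86% higher. The 4 endoderm markers, with FS means of 0.131 to 0.296 CPM, passed the filter through groups other than FS, where they are high. These counts are therefore a description only. Gata4, Gata6 and Sox17 made up most of the AF endoderm sum, with means of 10.1, 18 and 31.1 CPM of 64.3 CPM, while Ttr was at 0.0411 CPM and Amn at 0.0912 CPM in AF against 0.135 CPM in FS. Krt8 and Eomes made up most of the AF trophoblast sum, with means of 227 and 84.6 CPM of 339 CPM. Elf5 had no count in AF, and Ascl2 was at 1.16 CPM in AF against 2.5 CPM in FS (adjusted p = 0.124, edgeR).

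The 3 genes below the filter were near the counting floor in culture. Nr0b1, an atypical nuclear receptor also called Dax1, was at 0.247, 0.440 and 0.371 CPM in AF and at 0.0993 to 0.683 CPM in FS. Tbx3, a T-box factor that acts in embryonic stem cells and in extraembryonic endoderm, was at 0.617, 1.32 and 0.0928 CPM in AF and at 0 to 0.171 CPM in FS. Nr5a2, a nuclear receptor also called Lrh-1 that binds a regulatory region of Pou5f1, was at 0.493, 0.352 and 0 CPM in AF. In FS it was at 0 in 4 of 6 samples, at 0.114 CPM in line 2 at passage 16 and at 1.14 CPM in line 1 at passage 18. The ranges of FS and AF overlapped for each of these 3 genes.

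**Figure D2:**
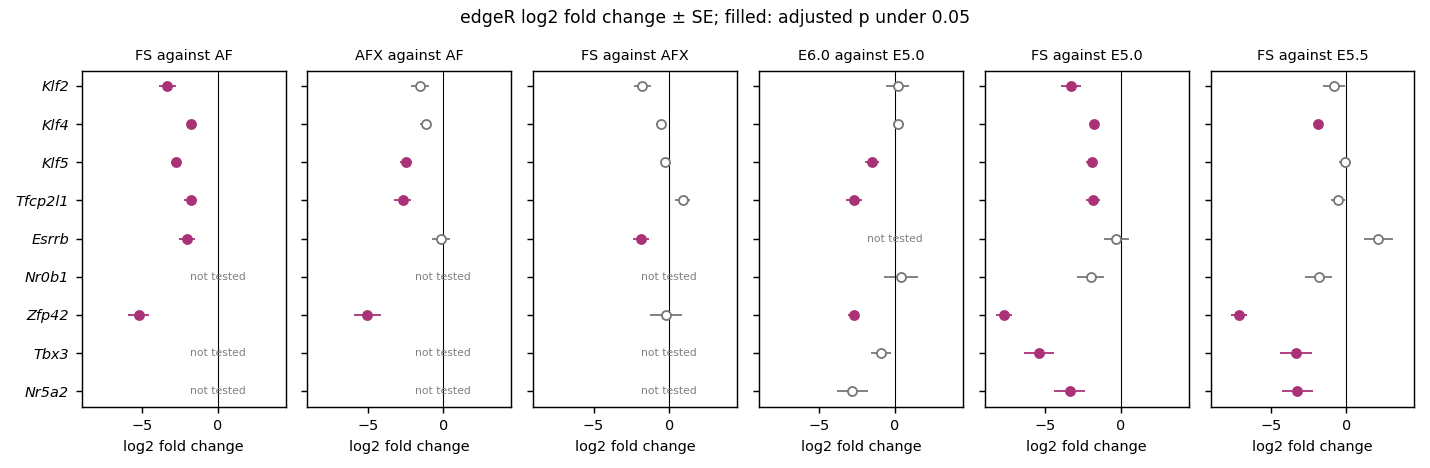
Log2 fold change of each gene (horizontal axis, negative where the first-named group is lower) with its SE from edgeR, in 6 of the 10 comparisons, filled where the adjusted p was under 0.05. FS against AF has 6 filled points, the lowest for Zfp42 at -5.23, and FS against AFX has 1, for Esrrb.

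AF and AFX cells, both labelled EpiSCs and grown in different media, differed in 3 of the 6 genes tested. Klf5, Tfcp2l1 and Zfp42 were lower in AFX, where 4.42% of all genes tested were called lower and 4.3% higher. Zfp42 passed the filter through AF, where it is high, so this count and the test of Zfp42 are also a description only. In 5 of the 6, Esrrb excepted, each AFX sample was below each AF sample, which held for 13.1% of all genes tested. Klf5 stood at 3.76, 8.0 and 4.66 CPM in AFX at passages 14, 15 and 16, against 25.4 to 38.3 CPM in AF. The log2 fold change of AFX against AF was -2.47 (SE 0.40, adjusted p = 0.00229, edgeR). Tfcp2l1 stood at 1.14, 0.500 and 2.66 CPM in AFX, and its log2 fold change was -2.68 (SE 0.56, adjusted p = 0.00941, edgeR), or -3.45 without AFX passage 16. Both genes had AFX ranges wholly under those of AF.

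Zfp42 had 3 counts in the 3 AFX samples, at 0.0671, 0 and 0.166 CPM, against 96 counts in AF. The ratio was 0.0271 with a 95% counting interval of 0.00549 to 0.0815, and the fitted log2 fold change was -5.03 (SE 0.92, adjusted p = 0.00419, edgeR), or -5.87 without AFX passage 16. Klf4 at 2.68, 1.25 and 1.91 CPM and Klf2 at 1.01, 1.5 and 1.58 CPM in AFX were also below each AF sample, but missed the threshold with adjusted p of 0.0621 and 0.153 (edgeR). By the Wald test of DESeq2 Klf4 passed it with an adjusted p of 0.0289.

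Esrrb overlapped between AF and AFX. It was at 1.41, 4.63 and 6.32 CPM in AFX at passages 14, 15 and 16 and at 1.11, 5.72 and 6.77 CPM in AF at the same passages, with an adjusted p of 0.918 (edgeR). In both media passage 14 was the lowest of the 3. In AFX passage 16, which had the highest Esrrb level of that group, Tbx3 was at 2.24 CPM from 27 counts against 0 in the other 2 passages, and the visceral endoderm sum was 16.5 CPM against 2.42 and 3.63 CPM. The sums of the endoderm, trophoblast and fibroblast markers were each lower in AFX than in AF without overlap. Of the markers tested 3 of 4, 2 of 7 and 7 of 9 were lower in AFX and the fibroblast list's Thy1 was higher. Of all genes tested 4.42% were lower and 4.3% higher. The part of these markers in the differences of the naive factors was not tested.

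Against AFX, FS cells were lower in Esrrb alone of the 6 genes tested. Of all genes tested 4.92% were called lower in FS and 3.78% higher. The 6 FS samples held 0.512 to 1.69 CPM of Esrrb, and AFX passage 14 at 1.41 CPM lay within that range. The log2 fold change was -1.88 (SE 0.53, adjusted p = 0.0395, edgeR). The call was lost when FS line 1 passage 18, FS line 2 passage 12, 13 or 16, or AFX passage 15 or 16 was left out, with adjusted p of 0.0679, 0.0709, 0.0743, 0.08, 0.129 and 0.239 in that order. Klf2 was lower in each FS sample than in any AFX sample, as were 7.59% of all genes tested, with an adjusted p of 0.0791 in edgeR and 0.0435 in DESeq2. Klf4, Klf5, Tfcp2l1 and Zfp42 overlapped between FS and AFX, with adjusted p of 0.328, 0.70, 0.316 and 0.945 (edgeR). Some markers of other cells were lower in FS too, namely 1 of 4 endoderm markers tested (Gata6), 1 of 7 trophoblast markers (Krt7) and 3 of 9 fibroblast markers (Acta2, Col3a1 and Col1a2), with none higher. Their sums overlapped between FS and AFX, with trophoblast means of 71.6 and 124 CPM, and their part was not tested. The comparisons among FS, AF and AFX share samples and are not independent of each other.

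Between the 2 FS lines none of the 6 genes tested was called by edgeR or DESeq2, where 3.85% of all genes were called by edgeR in either direction. Klf2 had an unadjusted p of 0.0126 and was the only one of the 6 under 0.05. It was at 0.496, 0.709 and 0.733 CPM in line 1 and at 0.241, 0.211 and 0.0569 CPM in line 2, with no overlap and an adjusted p of 0.144 (edgeR). These levels rest on 5, 6 and 9 counts in line 1 and 3, 2 and 1 counts in line 2. Esrrb was also without overlap, at 1.69, 1.54 and 1.06 CPM in line 1 and 1.04, 0.949 and 0.512 CPM in line 2, with an adjusted p of 0.603. Line 2 lay wholly below line 1 in 12.4% of all genes tested. The visceral endoderm sum also separated the lines in the same direction, at 1.22 to 2.88 CPM in line 1 and 0.106 to 0.398 CPM in line 2, as did the trophoblast sum at 79.2 to 103 CPM against 50.5 to 58.3 CPM. The fibroblast sums overlapped, and the part of other cells was not tested.

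In the epiblast the naive factors took different courses. From E5.0 to E6.0, 3 of the 8 genes tested fell, namely Zfp42, Tfcp2l1 and Klf5, where 11.6% of all 14228 genes tested fell and 10.2% rose. With Nr5a2, 4 of the 8 had each E6.0 embryo below each E5.0 embryo, which held for 18.2% of all genes tested. Nr5a2, with 0, 7 and 3 counts in the E6.0 embryos, passed the filter through the earlier stages, where it is high. Tfcp2l1, with 16, 8 and 17 counts at E6.0, passed it in part through those stages. These counts of genes, and the tests of both genes against E6.0, are therefore a description only. Esrrb did not pass the filter among epiblasts. Zfp42 was at 17.3, 22.6 and 14.8 CPM in E5.0 embryos 1, 2 and 4, at 11.8, 7.91 and 15.2 CPM in the E5.5 embryos and at 1.58, 2.77 and 3.83 CPM in the E6.0 embryos. The E6.0 embryos lay under the embryos of both earlier stages, while E5.0 and E5.5 overlapped. Zfp42 fell by 2.73 on the log2 scale from E5.0 to E6.0 (SE 0.38, adjusted p = 0.000188, edgeR). From E5.5 to E6.0 it fell by 2.08 (SE 0.37, adjusted p = 0.00585, edgeR), and from E5.0 to E5.5 the adjusted p was 0.286. Zfp42 was the 1 gene of the 8 called between E5.5 and E6.0, where 2.54% of all genes tested fell and 1.89% rose. Zfp42 and Tfcp2l1 were lower without overlap at that step, as were 15.3% of all genes tested.

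Tfcp2l1 was at 14.5, 7.85 and 7.20 CPM at E5.0, 5.54, 4.24 and 2.61 CPM at E5.5 and 2.1, 0.692 and 1.81 CPM at E6.0. The ranges of successive stages did not overlap, each lying under the one before. The change from E5.0 to E6.0 was -2.72 on the log2 scale (SE 0.52, adjusted p = 0.00214, edgeR), while each single step missed the threshold, with adjusted p of 0.133 and 0.139. Nr5a2 was at 3.35, 2.36 and 1.44 CPM at E5.0, 3.73, 2.52 and 0.373 CPM at E5.5 and 0, 0.606 and 0.319 CPM at E6.0. Its E6.0 embryos lay under those of E5.0, with an adjusted p of 0.0626 in edgeR and 0.0233 in DESeq2, under the limit of the filter given above.

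Klf5 was at 8.57, 32.0 and 10.9 CPM in E5.0 embryos 1, 2 and 4, at 6.78, 2.87 and 4.48 CPM at E5.5 and at 5.65, 6.06 and 6.07 CPM at E6.0. It was the 1 gene of the 8 called between E5.0 and E5.5, where 3.75% of all genes tested fell and 3.07% rose. Klf5, Tfcp2l1 and Tbx3 were lower at E5.5 without overlap, as were 11.2% of all genes tested. It fell by 1.86 on the log2 scale to E5.5 (SE 0.48, adjusted p = 0.0332, edgeR) and by 1.54 to E6.0 (SE 0.47, adjusted p = 0.0323, edgeR). The level of embryo 2 was the highest of the 9 epiblasts, in the library that also stood apart in Elf5, Cdx2 and Hand1, picked after their values were seen. Over all 10 trophoblast markers the sum of that library was 152 CPM. It was 111 and 77.4 CPM in embryos 1 and 4, and 99.1 to 227 CPM at E6.0. Without embryo 2 the changes were -1.05 (adjusted p = 0.117) and -0.72 (adjusted p = 0.213), so that none of the 8 genes was called at E5.5 and Tfcp2l1 and Zfp42 were called at E6.0. The call at E5.5 was also lost without E5.5 embryo 1, 2 or 3 (adjusted p of 0.0517, 0.137 and 0.103), and that at E6.0 without E6.0 embryo 1, 2 or 3 (0.102, 0.0974 and 0.0927).

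Klf2 and Klf4, the other KLF factors, were not called between stages. Klf2 was at 0.869, 2.36 and 8.51 CPM at E5.0, 1.24, 0.115 and 0.746 CPM at E5.5 and 5.25, 5.19 and 3.09 CPM at E6.0. Each E6.0 embryo thus exceeded each E5.5 embryo, as in 15.5% of all genes tested, from 129 counts at E6.0 against 20 at E5.5. The adjusted p was 0.098 in edgeR, 0.0256 in DESeq2, 0.00553 without the filter on low counts and 0.0202 when the 2 stages were fitted alone. From E5.0 to E5.5 the adjusted p was 0.0974 in edgeR, 0.0343 in DESeq2 and 0.0367 in edgeR without E5.0 embryo 1. With 11, 1 and 8 counts at E5.5, Klf2 passed the filter mainly through the other stages, so its filtered tests are a description only. Klf4 lay between 4.01 and 6.53 CPM in the 9 epiblasts, with adjusted p of 0.714 to 0.925 over the 3 comparisons of stages (edgeR).

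Esrrb was close to the counting floor in most epiblasts, at 0, 4.12 and 0.360 CPM at E5.0, 0.452, 0.115 and 0.187 CPM at E5.5 and 0.788, 1.64 and 0.745 CPM at E6.0. The 1 high value at E5.0 was embryo 2, with 21 of the 24 counts of that stage, beside the picked trophoblast genes given above. Nr0b1, which acts as a corepressor, was also highest there, at 0.869, 3.14 and 0 CPM at E5.0, 1.69, 0.115 and 1.59 CPM at E5.5 and 1.18, 1.82 and 2.13 CPM at E6.0. Tbx3 was at 3.48, 6.67 and 3.48 CPM at E5.0, 1.81, 0.802 and 0.653 CPM at E5.5 and 1.18, 4.59 and 1.38 CPM at E6.0. Its E5.5 embryos lay under its E5.0 embryos, with an adjusted p of 0.0961 in edgeR and 0.0399 in DESeq2. With 16, 7 and 7 counts at E5.5, Tbx3 too passed the filter mainly through the other stages, so these tests are a description only. The highest E6.0 value of both Esrrb and Tbx3 was that of embryo 2, whose sum of Elf5, Cdx2 and Hand1 was 2.25 CPM against 0.263 and 0.745 CPM. The visceral endoderm sum was also lower at each later stage, without overlap, while the trophoblast and fibroblast sums were higher at E6.0 than at E5.5 without overlap. Most tested genes of the latter 2 lists went the other way. From E5.5 to E6.0, 2 trophoblast markers had log2 fold changes above 0 and 5 below, with none called. Of the fibroblast markers 2 were above 0, 1 of them called, and 4 below. The part of other cells in the values of the naive factors was not tested.

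**Figure D3:**
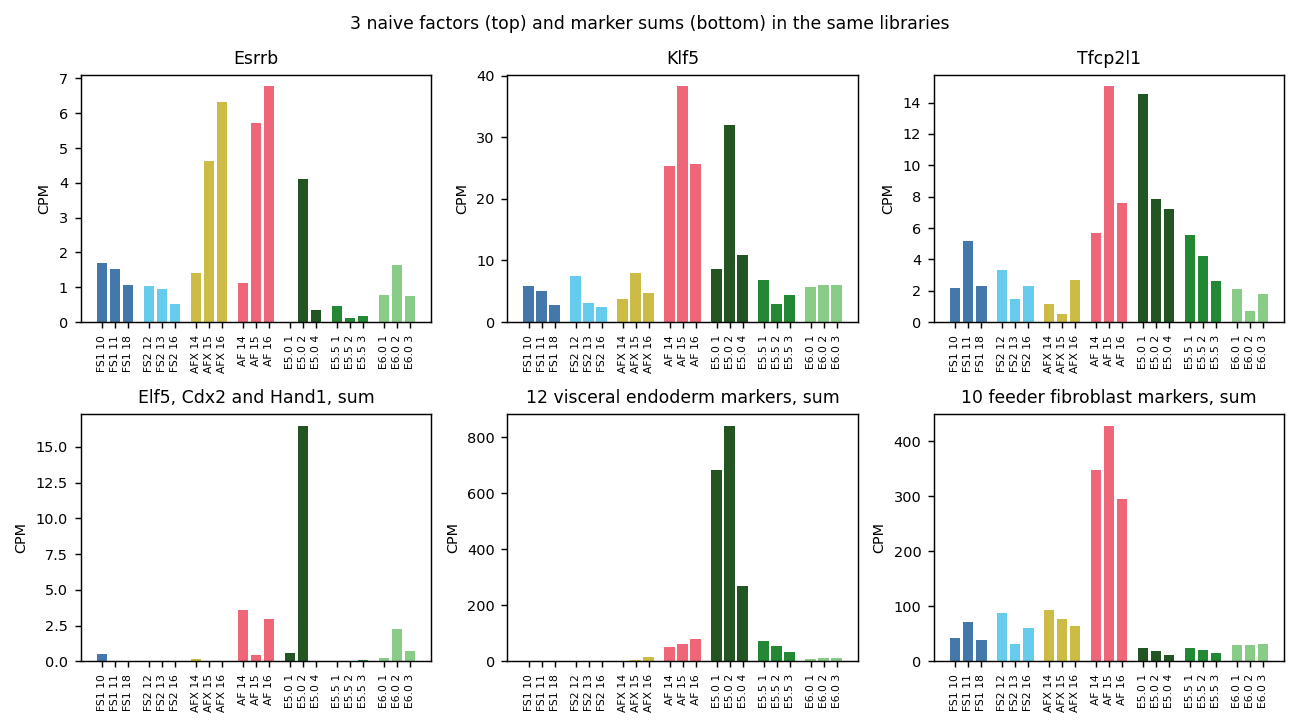
CPM of Esrrb, Klf5 and Tfcp2l1 (top row) and summed CPM of marker genes of other cell types (bottom row) in each of the 21 libraries, with bars coloured by group on linear axes from 0. E5.0 embryo 2, at 4.12 CPM of Esrrb and 32.0 CPM of Klf5, has the highest sum of Elf5, Cdx2 and Hand1 at 16.5 CPM. These genes were picked from the trophoblast list after their values were seen. The AF libraries have the highest fibroblast sums.

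Set against the embryo, FS cells held less of 7 of the 9 genes than E5.0 epiblasts and less of 4 than E5.5 epiblasts. All 9 passed the filter in the fit of 21 samples, in which 24.8% of 16614 genes were lower and 27.1% higher in FS than at E5.0. Against E5.5 the shares were 20.8% lower and 23% higher. Klf2, Zfp42, Nr0b1, Tbx3 and Nr5a2 passed that filter through groups other than FS. Each of these 5 passed at least in part through epiblasts, Nr0b1, Tbx3 and Nr5a2 having failed the filter in culture. The counts of calls, and the tests of these 5 genes against the embryo given below, are therefore a description only. Each FS sample was below each embryo for 7 of the 9 genes at E5.0 and for 3 at E5.5, and for 19.2% of all genes tested at either stage. The comparisons share the FS samples. The input differed with the groups, 1000 cells against a single epiblast, and its part was not tested. The visceral endoderm sum was higher in each E5.0 and E5.5 embryo than in any FS sample, as given above, and the fibroblast sum was lower in each of these embryos than in any FS sample. The part of other cells was not tested either. Zfp42 showed the widest gap, with 5 counts in the 6 FS samples against 377 in the 3 E5.0 embryos and 336 in the 3 E5.5 embryos. The ratios were 0.00405 (95% counting interval 0.00131 to 0.00954) and 0.00599 (0.00193 to 0.0141). The fitted log2 fold changes were -7.75 (SE 0.54, adjusted p = 1.49e-10, edgeR) and -7.10 (SE 0.54, adjusted p = 1.06e-09).

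Among the KLF factors Klf4 was below both stages, by log2 fold changes of -1.79 against E5.0 (SE 0.32, adjusted p = 6.33e-05, edgeR) and -1.90 against E5.5 (SE 0.31, adjusted p = 4.06e-05, edgeR). Its highest FS sample, at 1.79 CPM, was under the lowest of these embryos, at 4.01 CPM. Klf2 and Klf5 were below E5.0, with log2 fold changes of -3.30 (SE 0.66, adjusted p = 0.000253) and -1.92 (SE 0.38, adjusted p = 0.000221, edgeR). They were not called against E5.5, where the adjusted p were 0.391 and 0.896. The size of both rested on single embryos, since Klf2 was at -1.95 without embryo 4 (adjusted p = 0.0338) and Klf5 at -1.13 without embryo 2 (adjusted p = 0.0133). For Klf5 the FS range of 2.5 to 7.47 CPM held the 3 E5.5 values of 2.87, 4.48 and 6.78 CPM.

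Tfcp2l1 was also below E5.0, by -1.83 (SE 0.44, adjusted p = 0.00139, edgeR), and overlapped with E5.5 (adjusted p = 0.327). Tbx3 had 7 counts in FS, at most 3 in any sample, against 91 at E5.0 and 30 at E5.5. Its ratios were 0.0235 (95% counting interval 0.00919 to 0.0504) and 0.0939 (0.0348 to 0.218), with adjusted p of 0.000109 and 0.0129 (edgeR). Nr5a2 had 16 counts in FS, 14 of them in line 1 at passage 18, against 51 at E5.0 and 59 at E5.5. The log2 fold changes were -3.36 (SE 1.02, adjusted p = 0.00859, edgeR) and -3.25 (SE 1.02, adjusted p = 0.0124), and they were -5.75 and -5.63 without that FS sample. Against E5.5 the calls of Tbx3 and Nr5a2 were lost without E5.5 embryo 1, with adjusted p of 0.0698 and 0.073.

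Esrrb was the exception in direction against E5.5. It had failed the filter among epiblasts and entered the fit through cultured cells. Its tests against the embryo are therefore a description only. Each FS sample, at 0.512 CPM or more, exceeded each E5.5 embryo, at 0.452 CPM or less, as in 21.7% of all genes tested, with an adjusted p of 0.0834 in edgeR, 0.0402 in DESeq2 and 0.0218 with the compared groups fitted alone. Against E5.0 the log2 fold change was -0.29, with an adjusted p of 0.784 (edgeR). Without embryo 2 the FS cells held more Esrrb, with a log2 difference of 2.53 and an adjusted p of 0.0417 (edgeR). With that embryo left out 8 of the 9 genes were called, 7 of them lower, and 48.3% of all genes tested were called in either direction. Nr0b1 was at 0.289 CPM on average in FS against 1.34 and 1.13 CPM at the 2 stages, with adjusted p of 0.0704 and 0.0945. It passed the threshold against E5.0 without embryo 4 or without FS line 2 passage 16 (adjusted p of 0.0158 and 0.0413), and against E5.5 without embryo 2 (adjusted p = 0.04).

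AF cells held more Klf5 and Tfcp2l1 than E6.0 epiblasts, and no other gene of the 9 was called in the fit of 21 samples. In this comparison 18.1% of all genes tested were higher in AF and 17.1% lower. Klf5 was at 25.4 to 38.3 CPM in AF against 5.65 to 6.07 CPM at E6.0, with a log2 fold change of 2.33 ± 0.46 (SE) and an adjusted p of 0.00051 (edgeR). Tfcp2l1 was at 5.67 to 15 CPM against 0.692 to 2.1 CPM, with a log2 fold change of 2.65 ± 0.57 (SE) and an adjusted p of 0.00104 (edgeR). In these 2 genes each AF sample exceeded each E6.0 embryo, which held for 27.9% of all genes tested, while Klf4 and Nr0b1 were lower in each AF sample, which held for 24.4%. Klf2, Zfp42 and Nr5a2 overlapped between AF and E6.0, with adjusted p of 0.867, 0.805 and 0.907. Esrrb, which entered through the cultured cells, had an adjusted p of 0.0713 in edgeR and 0.0378 without AF passage 14. It was 0.0267 with the compared groups fitted alone and 0.0455 in DESeq2. Nr0b1, which entered through the epiblasts, had an adjusted p of 0.111 in edgeR and 0.00996 with the compared groups fitted alone. The endoderm, trophoblast and fibroblast sums were each higher in each AF library than in any E6.0 library, as given above, and their part was not tested.

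Of 11 further naive-state genes, 7 passed the filter in epiblasts, and from E5.0 to E6.0 3 fell and 1 rose (11.6% and 10.2% of all genes tested), with a median log2 fold change of -2.25 against -0.02 over all genes. Dppa5a, a KH-domain protein of pluripotent cells, went from 172 ± 12.3 CPM at E5.0 to 104 ± 4.81 CPM at E5.5 and 9.64 ± 0.871 CPM at E6.0 (SD, n = 3 each). Morc1 went from 41.9 ± 18.1 CPM through 3.32 ± 1.11 CPM to 0.534 ± 0.592 CPM (SD, n = 3 each), and the growth factor gene Fgf4 also fell. Morc1 passed the filter through the earlier stages, where it is high, so the count and median of these genes are a description only. Nanog, a homeobox factor of the core network, rose from 4.87 ± 4.97 CPM to 36.7 ± 8.02 CPM (SD, n = 3 each). In FS against AF, Nanog was lower at 20.4 ± 6.19 CPM (SD, n = 6) against 51.4 ± 3.17 CPM (SD, n = 3), and Fgf4 was higher. These were the 2 calls among 6 genes tested, where 10.6% of all genes tested were lower and 8.86% higher. In FS against E5.0, 6 of 9 tested were lower and Nanog was higher, where 24.8% of all genes tested were lower and 27.1% higher. Of the 6, Dppa3, Dppa5a and Morc1 had failed the filter in culture and entered through the epiblasts, where they are high, so the count is a description only. Dppa3 had no count in the FS samples and a mean of 6.93 CPM at E5.0.

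Among the upstream regulators, Lifr, Il6st and Stat3 of the LIF pathway were lower in FS than in AF, while its genes Jak1 and Socs3 were not called (adjusted p of 0.0717 and 0.107, edgeR). In FS against AF, 3 of the 10 regulators were lower and 1 higher (10.6% and 8.86% of all genes tested), with a median log2 fold change of -0.19 against 0.02 over all genes tested. The LIF receptor gene Lifr was at 14.1 ± 2.48 CPM in FS (SD, n = 6) against 32.2 ± 3.02 CPM in AF and 35.3 ± 7.23 CPM in AFX (SD, n = 3 each), and was called lower in FS against both. Stat3, which encodes the pathway's transcription factor, was at 15 ± 2.75 CPM in FS (SD, n = 6), 27.5 ± 4.56 CPM in AF and 10.9 ± 2.17 CPM in AFX (SD, n = 3 each), and was called lower than AF in both FS and AFX. The coreceptor gene Il6st was likewise called lower than AF in both. Against AFX, Lifr was the 1 regulator of the 10 called in FS, where 4.92% of all genes tested were lower and 3.78% higher. From E5.0 to E6.0, 1 of the 10 fell and 2 rose, where 11.6% of all genes tested fell and 10.2% rose. Stat3 fell from 23.3 ± 6.21 CPM at E5.0 to 6.54 ± 1.83 CPM at E6.0 (SD, n = 3 each), while Tcf7l1, a repressor of naive genes, and Ctnnb1, which encodes beta-catenin, rose.

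Close relatives of the 9 genes that were called between stages rose. Of 22 paralogs 15 were tested in epiblasts, and from E5.0 to E6.0 4 rose and none fell, where 10.2% of all genes tested rose and 11.6% fell, with a median log2 fold change of 0.61 against -0.02 over all genes. The 4 were Klf3, Klf6, Klf7 and Klf11. Klf6 went from 19.3 ± 9.24 CPM to 61.9 ± 6.37 CPM and Klf7 from 16 ± 2.66 CPM to 53.7 ± 11.5 CPM (SD, n = 3 each). In FS against AF, 17 paralogs were tested, of which Tbx2 and Klf3 were lower and Klf13 was higher, where 10.6% of all genes tested were lower and 8.86% higher. Tbx2, with 5 counts in FS and 59 in AF, passed the filter through AF, where it is high. Its call is therefore a description only. Of the 9 formative genes, 3 (Dnmt3b, Zic2 and Sall2) were higher in FS than in AF and none lower, and against E5.5 7 were lower in FS and none higher, where 20.8% of all genes tested were lower and 23% higher.

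The genes most like each member were sought among 9448 or 9449 genes by the Pearson correlation of log2 CPM over the 21 samples. The cultured samples and the epiblasts differ in many genes, so correlations within the 12 cultured samples and within the 9 epiblasts are given too, as descriptions of libraries that share depth and groups. The choice of genes depends on the measure, since the genes named here ranked from 1 to 106.5 by Spearman correlation and from 3 to 1021 by the Pearson correlation of the 7 group means. Sfmbt2 ranked 106.5 and Mdk 67.5 by the first, and B4galt3 ranked 1021, Clip2 432 and Fgd6 366 by the second. Zfp42 had the closest partners, Irf1 (r = 0.966, with 0.942 in culture and 0.871 in epiblasts) and Pramef12 (r = 0.965, with 0.898 and 0.933). Klf4 was most like Arhgef5 (r = 0.951, with 0.919 and 0.583) and Mdk (r = 0.913, with 0.943 and -0.0022). Klf5 was most like Sfmbt2 (r = 0.864, with 0.887 and 0.844) and Col4a2 (r = 0.855, with 0.882 and 0.867). Tfcp2l1 was most like Lyst (r = 0.864, with 0.895 and 0.928) and Elf1 (r = 0.857, with 0.934 and 0.877). For Klf2 the closest were Wdr1 (r = 0.843, with 0.918 and 0.898) and Kctd3 (r = 0.818, with 0.94 and 0.925). Esrrb had Golga4 (r = 0.85, with 0.574 and 0.963) and Bcl2l1 (r = 0.812, with 0.748 and 0.743), and Nr0b1 had Fgd6 (r = 0.788, with 0.605 and 0.797) and B4galt3 (r = 0.787, with 0.455 and 0.752). Tbx3 had Clip2 (r = 0.864, with 0.791 and 0.514) and Rnf7 (r = 0.863, with 0.671 and 0.616), and Nr5a2 had Gcat (r = 0.854, with 0.57 and 0.83) and Ntmt1 (r = 0.85, with 0.334 and 0.915). The closest of the 9 to each other were Klf4 and Zfp42 (r = 0.859), which correlated at 0.868 in culture and at -0.284 in epiblasts.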

How the data were processed

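Values are raw counts of 33861 genes in 21 samples, as deposited by the authors. Per the submitters' processing notes, Trim Galore, TopHat2 2.1.0, featureCounts 1.5.0 and mm10 were used. The gene annotation, the use of strand and any sequencing batch are not given in the sources used here. Samples were grouped by title. Differences were tested with edgeR 4.0.16 under R 4.3.3, using filterByExpr, TMM scaling, robust two-sided quasi-likelihood F-tests, Benjamini-Hochberg adjustment over all genes tested and a threshold of 0.05. Cultured comparisons were fitted on the 12 cultured samples with both FS lines as 1 group (separate for line 2 against line 1), epiblast comparisons on the 9 epiblasts, and comparisons between them on all 21 samples. DESeq2 1.42.0 was an alternative. CPM was scaled by TMM over 21 samples, and 3 counts were taken as the floor. Coordinates and exon lengths come from GENCODE (GRCm38). The 9 members are named whatever their result, with the 2 genes most like each by correlation (prior count 2, at least 10 CPM in a group) and list genes at the threshold. The members, lists and tests were chosen with earlier results of these data known. The 21 pairs of replicates differed beyond counting noise (chi-square over degrees of freedom from 4.84 to 29.0). Steps were tested on simulated data.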

Additional observations from a re-analysis of the deposited data

Results flagged for a closer look

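Nr5a2 was at 1.14 CPM in FS line 1 at passage 18, from 14 counts, while the next highest of the 6 FS samples was at 0.114 CPM and 4 were at 0. The gap to the nearest sample was 0.9 of the range of the group, above Dixon's 95% critical value for 6 samples, and it was the 1 such value among the 9 genes in FS. Groups of 3 samples were not examined in this way.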

How the results depend on the processing

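Direction held for the 28 called log2 fold changes under each alternative run. With a mean of at least 5 CPM as the filter, which removes most of these genes, the called members numbered 1 for FS against AF, 0 for FS against AFX, 1 for AFX against AF, 1 for FS against E5.0, 0 for FS against E5.5 and 1 for AF against E6.0. DESeq2 called 2 in FS against AFX, 3 in E5.5 against E5.0 and 2 in E6.0 against E5.5. Without a filter the last 2 comparisons gave 2 each, and with the compared groups alone they gave 0 and 2, with 4 for AF against E6.0. With the FS lines separate, FS against AFX gave 2. Leaving out 1 sample in turn gave 5 to 6 for FS against AF, 0 to 1 for FS against AFX, 3 to 3 for AFX against AF, 0 to 0 between FS lines, 0 to 2 for E5.5 against E5.0, 1 to 1 for E6.0 against E5.5, 2 to 3 for E6.0 against E5.0, 7 to 8 for FS against E5.0, 2 to 5 for FS against E5.5 and 2 to 3 for AF against E6.0. Genes called in all moved from 618 between FS lines to 1099 (DESeq2), 1298 (no filter) and 1051 (groups alone), from 971 for E5.5 against E5.0 to 1590, 1659 and 453, and from 631 for E6.0 against E5.5 to 1075, 1107 and 1445. Passage and embryo numbers did not pair the samples (correlation of same-number deviations -0.135 to 0.205). With them as a replicate block, AFX against AF gave 3 members and 907 genes against 1401, E5.5 against E5.0 gave 0 and 421, E6.0 against E5.5 gave 1 and E6.0 against E5.0 gave 2, with Klf5 at an adjusted p of 0.094. Most members had few counts, which limits the size of difference that could be seen.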
